A study of Mus musculus with 2 samples.

Results

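Of the 23572 TCF12 peaks on mouse chromosomes 1 to 19 and X (mm9 build), 1138 had their summit inside an annotated exon of a protein-coding gene and more than 1 kb from the 5' end of every protein-coding gene. These exon peaks made up 4.83% of the peaks (95% Wilson interval 4.56 to 5.11). Exon sequence at that distance from gene 5' ends made up 2.55% of the bases, with sequence gaps counted among them. The rule used only the position of the summit and the GENCODE vM1 annotation, and neither the strength of a peak nor its sequence. TCF12 was immunoprecipitated with its DNA and sequenced (ChIP-seq) in CH12.LX, an immortalised female mouse B-cell lymphoma line of strain B10.H-2aH-4bp/Wts. The study has 1 group, untreated as far as the labels say, with 2 biological replicates of this single line, and no knockout or mock antibody sample, although the mm10 peaks of each replicate were found against a control alignment. The mm9 list joins both replicates, so shares of peaks carry intervals for counting error only, neighbouring peaks are treated as independent, and no test across samples is possible. Read depth is unknown.

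TCF12 (HEB) belongs to the E proteins, transcription factors with a basic helix-loop-helix domain. They bind DNA as dimers at the E-box, whose general form is CANNTG. E proteins drive lymphocyte development and are held off DNA by the ID proteins. Exons serve first as templates for RNA, and a factor bound inside a coding exon meets sequence that is also constrained by codons and by splicing. A splice donor usually begins with GT and an acceptor ends with AG, so an exon that ends in CAG before an intron that starts with GTG spells CAGGTG, which is the E-box CACCTG read on the other strand.

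Sequences from the strongest exon peaks with such a motif in coding sequence show what these summits hold. They were read from mm9 and are written 5' to 3' on the strand of the gene, with the E-box at the centre of each stretch in capitals. A further main E-box in the stretch of Aldh3b1, and in those of Trim11 and Tcfap4 shown later, is left in lower case.

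4933403G14Rik, chr8:128195303-128195362, plus strand: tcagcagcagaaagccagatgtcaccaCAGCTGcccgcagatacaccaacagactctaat

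4933403G14Rik, chr8:128195378-128195437, plus strand: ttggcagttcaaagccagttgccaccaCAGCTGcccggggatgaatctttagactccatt

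Stam2, chr2:52550279-52550338, minus strand: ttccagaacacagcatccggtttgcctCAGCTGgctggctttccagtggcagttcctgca

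Aldh3b1, chr19:3923784-3923843, minus strand: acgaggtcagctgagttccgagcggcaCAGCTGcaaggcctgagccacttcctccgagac

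In these 4 stretches the capitals fill 2 whole codons, CAG for glutamine and CTG for leucine. The E-box centre of the Aldh3b1 stretch lay 3.5 bp from the summit, and those of 4933403G14Rik lay 31.5 and 43.5 bp away on either side of theirs.

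The next sequences hold an E-box that spans an exon border, and they are shown because each reads CAGGTG with the border after the third capital. In the first pair the exon lies to the left and the intron to the right (donors). In the second pair the intron lies to the left and the exon to the right (acceptors).

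Rpgrip1, chr14:52769737-52769796, plus strand: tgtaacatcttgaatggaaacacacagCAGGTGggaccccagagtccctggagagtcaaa

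Trim11, chr11:58795696-58795755, plus strand: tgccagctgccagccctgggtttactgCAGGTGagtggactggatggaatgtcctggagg

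N4bp3, chr11:51458002-51458061, minus strand: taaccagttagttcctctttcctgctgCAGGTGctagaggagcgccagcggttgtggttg

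Tcfap4, chr16:4549442-4549501, minus strand: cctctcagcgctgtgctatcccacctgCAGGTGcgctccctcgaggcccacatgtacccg

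Tcfap4 encodes AP-4, itself a basic helix-loop-helix protein that binds E-boxes. The E-box at the Rpgrip1 donor was centred 2.5 bp from the summit of the second strongest exon peak.

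Where the exon peaks lay depended on which starts were counted. The rule measures from the outermost 5' end of each gene, and many genes have further transcripts that begin inside. Of the 1138 exon peaks, 425 (37.3%) lay at most 1 kb from the start of a protein-coding transcript. A further 107 (9.40%) lay within 1 kb of the start of another transcript, such as a retained intron or processed transcript, of a protein-coding gene. The remaining 606 (53.3%) were more than 1 kb from every transcript start and are named interior below. This split was made after the data had been seen. The 532 peaks near a start lay at a median of 44 bp from it and 69.4% were within 100 bp, and the median to the nearest transcript start was 45 bp for promoter peaks, those within 1 kb of a gene's own 5' end.

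The 2 kinds of exon peak fell in different parts of the transcript. Over all exon peaks, 415 summits were in coding sequence, 343 in 5' untranslated regions (UTRs), 228 in 3' UTRs and 152 only in exons of transcripts not annotated as protein-coding. Of the 425 peaks near a coding start, 317 were in a 5' UTR. Of the 606 interior peaks, 300 were in coding sequence, 215 in a 3' UTR, 20 in a 5' UTR and 71 in other exons. By exon, 377 lay in a first exon, 374 in an internal exon, 372 in a last exon and 15 in a gene's single exon. Coding summits were mostly internal, with 289 of 415, and 218 of the 228 summits in 3' UTRs were in last exons.

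**Figure D1:**
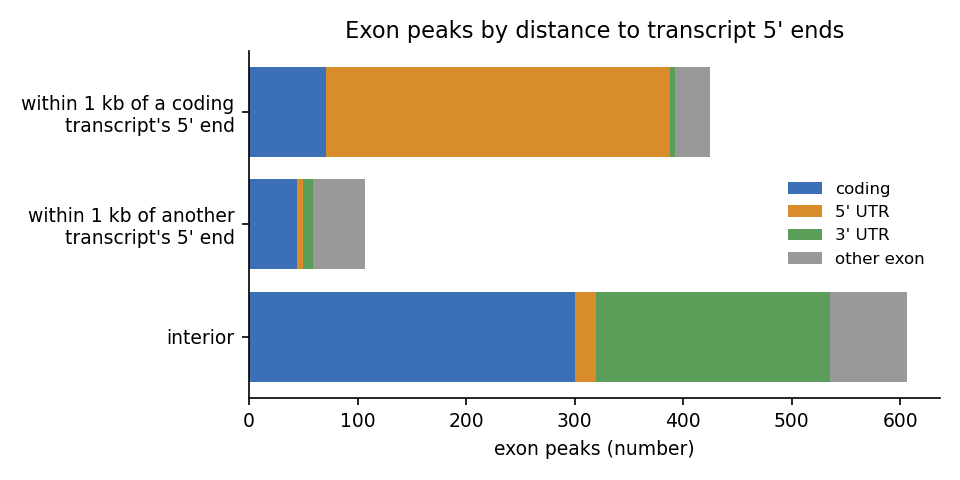
Number of exon peaks (x axis) by distance to transcript 5' ends (rows), coloured by the part of the transcript that holds the summit. Peaks near a coding transcript's start are mostly in 5' UTRs (317 of 425), and interior peaks are mostly in coding sequence (300) and 3' UTRs (215).

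Interior exons carried more summits per base than interior introns. There were 10.4 interior exon summits per Mb of exon (exact Poisson interval 9.62 to 11.3), 7.27 per Mb of intron (7.10 to 7.45) and 4.42 per Mb outside genes (4.32 to 4.53), each more than 1 kb from every transcript start. Coding sequence had 11.3 per Mb (10.1 to 12.6) and 3' UTRs 8.68 per Mb (7.56 to 9.92), and the intervals do not overlap. The 20 summits in interior 5' UTRs gave 35.3 per Mb (21.5 to 54.5), from only 0.567 Mb of sequence. Sequence gaps and repeats, where peaks may not be found, were left in these lengths. Their part in the differences was not tested.

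Exon peaks were about as strong as intron peaks, but the interior ones were weaker. The signal, the caller's own value per peak with no stated scaling, had a median of 50.7 in exon peaks (interval of the median 48.0 to 53.0) and 50.5 in intron peaks (49.6 to 51.4). Interior exon peaks had a median of 46.3 (44.3 to 48.5), exon peaks near a start 57.1 (53.0 to 61.0) and promoter peaks 62.2 (61.1 to 63.2). The exon share was 4.16%, 4.35%, 4.56%, 5.54% and 5.54% in 5 equal groups of all peaks from the strongest to the weakest. The strongest group held 14.4% of the interior exon peaks and the weakest 26.7%. Exon peaks near a start were spread more evenly over these groups, at 20.5% and 18.6%.

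Base composition followed the same division. The sequence within 50 bp of the summit had a median GC content of 56.4% and a median of 3 CpG dinucleotides in interior exon peaks, against 63.4% and 7 near a transcript start. Promoter peaks had 65.3% and 9, and intron peaks 52.5% and 1. The part of base composition in the motif shares that follow was not tested.

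The main E-boxes of these data, CAGCTG and CACCTG on either strand, were held within 50 bp of the summit by 406 of the 1138 exon peaks (35.7%, 32.9 to 38.5). This share joined unlike parts. Interior exon peaks held one in 281 of 606 cases (46.4%, 42.4 to 50.4), peaks near another transcript's start in 45 of 107 (42.1%, 33.1 to 51.5), and peaks near a coding start in 80 of 425 (18.8%, 15.4 to 22.8). Interior peaks exceeded those near any start by 22.9 percentage points (Newcombe interval 17.4 to 28.1). Peaks near a coding start exceeded promoter peaks, at 14.4%, by 4.40 points (0.883 to 8.46).

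Set against introns, the direction turned with the definition. All exon peaks held a main E-box 5.07 points less often than intron peaks (interval -8.03 to -2.02), at 35.7% against 40.7%. Interior exon peaks held one 4.21 points more often than introns at the same distance from starts (0.0867 to 8.37), at 46.4% against 42.2%. The lower bound of the second interval is close to 0. Counted more than 1 kb from protein-coding transcript starts only, exons were 3.39 points above introns, with an interval that includes 0 (-0.410 to 7.23).

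Within the interior exon peaks the share varied with the strength of the peak. In coding sequence 150 of 300 held a main E-box (50%, 44.4 to 55.6), and in 3' UTRs 97 of 215 (45.1%, 38.6 to 51.8), a difference of 4.88 points whose interval includes 0 (-3.85 to 13.5). From the strongest to the weakest signal group the share was 60.9%, 47.8%, 49.1%, 41.2% and 40.7%. The strongest exceeded the weakest by 20.2 points (7.16 to 32.2). Exon peaks near a start gave 26.6% in the strongest group and 25.3% in the weakest. CACCTG alone was held by 24.3% of interior exon peaks, CAGCTG alone by 15.3% and both by 6.77%, and 12.9% held 2 or more sites.

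**Figure D2:**
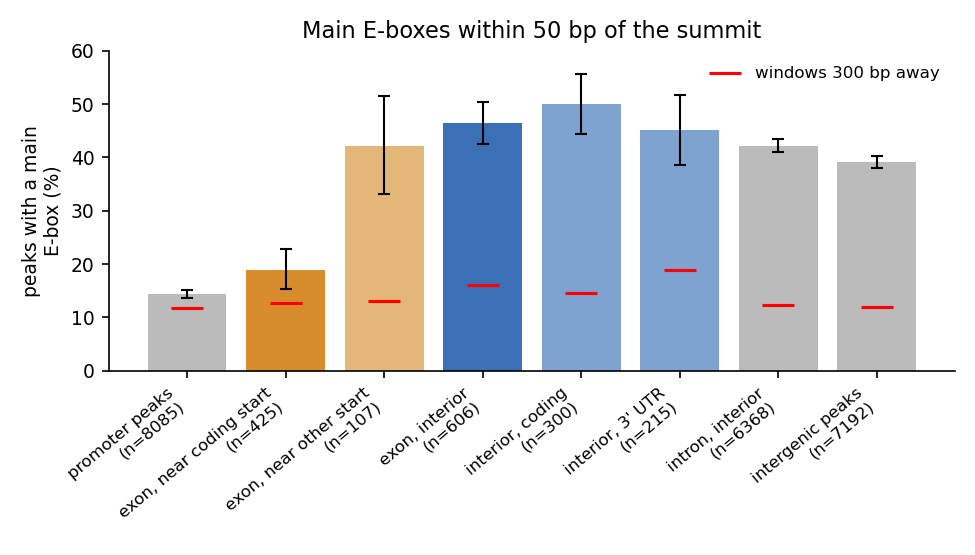
Share of peaks (y axis, %) with CAGCTG or CACCTG within 50 bp of the summit, by class of peak (x axis, with the number of peaks). Bars are shares, black lines 95% Wilson intervals for counting error, and red marks the share in windows centred 300 bp to either side. Interior exon peaks stand at 46.4%, above promoter peaks (14.4%) and exon peaks near a coding start (18.8%).

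**Figure D3:**
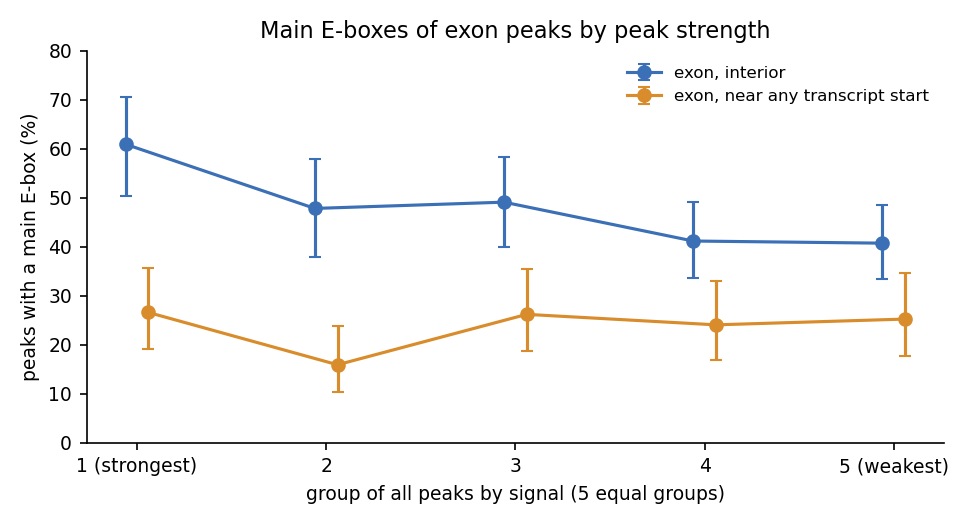
Share of exon peaks (y axis, %) with a main E-box in 5 equal groups of all peaks by signal (x axis), for interior exon peaks and those near any transcript start. Points are shares and lines 95% Wilson intervals. The interior peaks go from 60.9% in the strongest group to 40.7% in the weakest, and the others from 26.6% to 25.3%.

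E-boxes were concentrated at the summits themselves. Windows of the same length centred 300 bp to either side held a main E-box in 14.5% of cases over all exon peaks, which the summits exceeded 2.45-fold (2.16 to 2.78). The ratio was 2.88 (2.47 to 3.36) in interior exon peaks, 3.41 (2.73 to 4.26) in interior coding peaks and 2.40 (1.87 to 3.06) in interior 3' UTR peaks. In 5' UTR peaks it was 1.33, with an interval that includes 1 (0.967 to 1.82). Where an interior exon peak held a main E-box, the nearest was centred at a median of 17.5 bp from the summit, beside 18.5 bp in intron peaks.

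**Figure D4:**
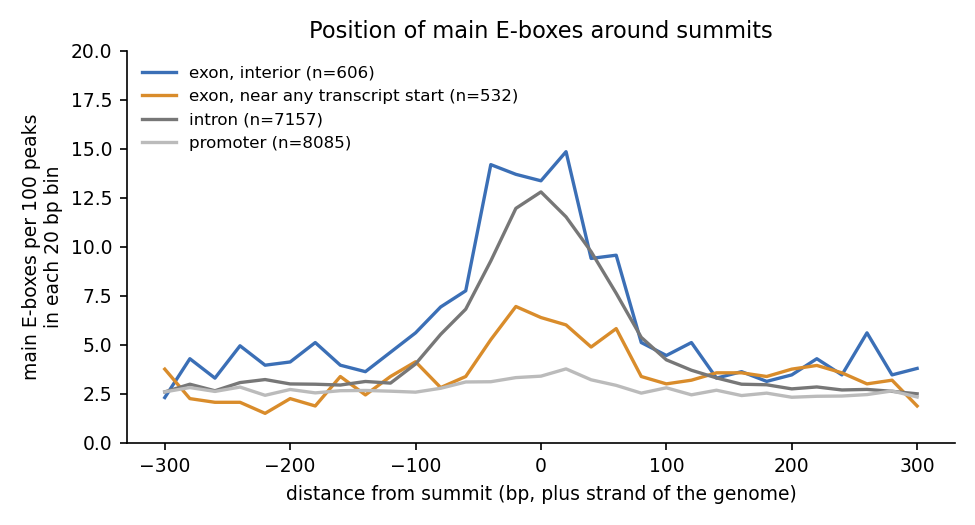
Main E-boxes per 100 peaks in 20 bp bins (y axis) by distance from the summit in bp on the plus strand of the genome (x axis). Interior exon peaks and intron peaks both rise around the summit, with 13.4 and 12.8 sites per 100 peaks in the central bin. Exon peaks near a start have 6.39 there and promoter peaks 3.40. The central bin is the highest in intron peaks only, and the highest of interior exon peaks is centred at 20 bp, with 14.9.

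Coding sequence holds many E-boxes of its own, so coding summits were also set against coding sequence without peaks. Of 217 coding peaks whose whole window was coding, 100 held a main E-box (46.1%, 39.6 to 52.7). In 3924 windows of coding exons from the same 203 genes, at least 500 bp from any summit, the share was 19.9% (18.7 to 21.2). The ratio was 2.32 (1.98 to 2.71). The summit windows were richer in GC, with a median of 60.4% against 54.5%, and the part of this in the ratio was not tested.

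The E-boxes of coding summits were read in 1 frame more often than the others. Of 228 sites wholly in coding sequence with a single reading frame, 139 (61.0%, 54.5 to 67.1) began at the first base of a codon, 25% at the second and 14.0% at the third. In the peak-free coding windows above, from the 203 genes of the 217 peaks with a wholly coding window, 49.9% of 882 sites (46.6 to 53.2) began there. The 228 summit sites came from all coding peaks, so the genes behind the sites and the windows were not the same set. The difference was 11.1 points (3.82 to 18). By letters on the coding strand, CACCTG (histidine, leucine) was in this frame in 57.1% of 70 sites against 39.2%, a difference of 17.9 points (4.75 to 30.3). For CAGCTG the shares were 59.7% and 50.1% (9.55 points, -0.584 to 19.1), and for CAGGTG (glutamine, valine) 71.8% and 62.8% (8.98 points, -7.86 to 22.5), and both of these intervals include 0. Sites that share a window are not independent, which these intervals do not take into account.

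Some E-boxes at exon summits were also splice sites. Of 532 main E-box sites at exon summits, 38 (7.14%, 5.25 to 9.65) spanned an annotated exon border, 19 at donors and 19 at acceptors, and all 19 donor sites read CAGGTG. In the flanks of the same peaks it was 22 of 363 sites (6.06%, 4.04 to 9.01). In interior exon peaks it was 24 of 383 sites (6.27%, 4.25 to 9.15) at summits and 5 of 215 (2.33%, 0.997 to 5.33) in flanks. In exon peaks near any transcript start it was 14 of 149 (9.40%, 5.68 to 15.2) at summits and 17 of 148 (11.5%, 7.30 to 17.6) in flanks. Summit windows contained borders more often than flanks, 25.3% against 12.1% over all exon peaks, so borders were also counted one by one. Of the 77 donors inside windows of interior exon summits, 11 (14.3%, 8.17 to 23.8) read CAGGTG, against 7.07% of all annotated donors. Of the 80 acceptors there, 10 (12.5%, 6.93 to 21.5) read CAGGTG, against 3.92% of all acceptors. In the flanks it was 2 of 38 donors and 3 of 62 acceptors. Over all exon peaks, 19 of 169 donors (11.2%, 7.32 to 16.9) read CAGGTG in summit windows and 13 of 167 (7.78%, 4.61 to 12.9) in flanks. For acceptors it was 14 of 132 (10.6%, 6.42 to 17.0) and 5 of 128 (3.91%, 1.68 to 8.82).

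Motifs of other factors separated interior exon peaks from interior intron peaks in part. Of the 21 motifs searched on both strands, the interval of the difference lay above 0 for 3 and below 0 for 5, with no adjustment for their number. AP-1 sites (TGACTCA or TGAGTCA) were at 3.96% of interior exon summits and 9.64% of interior intron summits, a difference of -5.68 points (-7.17 to -3.69). Octamers, the site of OCT proteins, were at 1.65% and 3.28% (-1.63 points, -2.52 to -0.211), and GATA sites (AGATAA, with T at the start or G at the end also counted) at 5.94% and 8.46% (-2.52 points, -4.29 to -0.252). The E-boxes CACATG (6.11% against 10.1%) and CATATG (0.165% against 2.04%) were the other two below. Above were CACCTG, at 31.0% against 26.7% (4.28 points, 0.560 to 8.22), the core ETS site CGGAA with A or C before it and A or G after it, at 7.43% against 4.77% (2.65 points, 0.741 to 5.07), and a core of the CTCF site, CCACNAG with C or T at the N and A or G after it, at 5.61% against 2.72% (2.89 points, 1.27 to 5.05). CTCF organises chromatin loops.

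Against their own flanks, interior exon summits were richer in several of these sites. RUNX sites (TGNGGTN, C or T at each N) were 3.07 times (2.12 to 4.45) as frequent, ETS cores 3.33 times (2.09 to 5.32) and the PU.1 type of ETS site (GAGGAAG) 2.45 times (1.73 to 3.48). NF-kappaB sites (GGGA and, after 3 or 4 bases of any kind, CCC or TCC) had a ratio of 2.57 (1.84 to 3.60), and CTCF cores 2.83 (1.70 to 4.73). GATA sites had a ratio of 0.447 (0.316 to 0.633). Octamers had a ratio of 4 (1.37 to 11.7) and AP-1 sites of 2 (1.15 to 3.49), and EBF1 sites were at 11 summits and 1 flank. Over all intron peaks the ratios were 2.51 for RUNX sites, 2.92 for ETS cores, 2.15 for the PU.1 type and 2.74 for NF-kappaB sites. They were 1.78 for CTCF cores, 0.553 for GATA sites, 6.31 for octamers and 4.66 for AP-1 sites. The control palindrome CGATCG was at only 1 interior exon summit and 2 flanks, too few to read.

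Exon peaks near a coding start were not identical with promoter peaks in this respect. Of 21 motifs compared, the interval of the difference lay above 0 for 3 and below 0 for 3. SP/KLF sites (GGGCGGG) were at 11.3% of them against 18.4% of promoter peaks (-7.09 points, -9.89 to -3.62), and ETS cores at 13.2% against 19.8% (-6.66 points, -9.68 to -3.01). NFY sites (CCAAT) were at 7.06% against 10.9% (-3.84 points, -6.02 to -0.923). AP-1 sites were at 3.29% against 1.39% (1.91 points, 0.558 to 4.08). The PU.1 type of ETS site was at 7.76% against 5.42% (2.35 points, 0.105 to 5.32), and CAGCTG at 10.4% against 7.48% (2.87 points, 0.252 to 6.18).

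The 1138 exon peaks lay in 994 host genes. Of these, 876 had 1 exon peak, 97 had 2, 16 had 3 and 5 had 4. A peak within 1 kb of the gene's 5' end was present in 449 hosts (45.2%), against 35.2% of all 22350 protein-coding genes. An intron peak was present in 463 hosts (46.6%), against 14.6% of all protein-coding genes. Gene length was not matched. The nearest other summit lay at a median of 5720 bp, and 62.7% of exon peaks had one within 10 kb. Only 10 exon peaks lay over exons of more than 1 gene.

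The mm9 list does not separate the replicates, so each exon peak was looked for on mm10 at the same distance from an end of the gene of the same symbol, within 50 bp. Of 1122 exon peaks whose gene was found, 840 (74.9%, 72.2 to 77.3) had a counterpart among the authors' optimal peaks, against 3.65% and 2.67% when the distance was shifted by 1000 bp either way. The share was 74.5% for interior peaks and 75.3% for those near a start. Over all exon peaks it was 83.1% within 200 bp, so a peak without a counterpart within 50 bp can still have a match on mm10. At the 833 found in both replicates' lists, replicate 1 had a median signal of 31.9 and replicate 2 of 18.6. Replicate 1 was higher at 87.6% of them, with a median ratio of 1.72 (quartiles 1.28 and 2.43), and over all optimal peaks this was 85.7% and 1.66. Neighbouring exon peaks can lie under 1 broad replicate peak, and 10 of the 833 shared their replicate values with another. Counted once, the 828 distinct pairs of values gave 87.7% and 1.72. Spearman's rank correlation between the replicates across these 833 peaks was 0.596, with 0.519 for interior peaks and 0.647 for those near a start, beside 0.697 over all optimal peaks. The peaks share the 2 libraries, and the optimal list had already been chosen for repeated ranks.

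**Figure D5:**
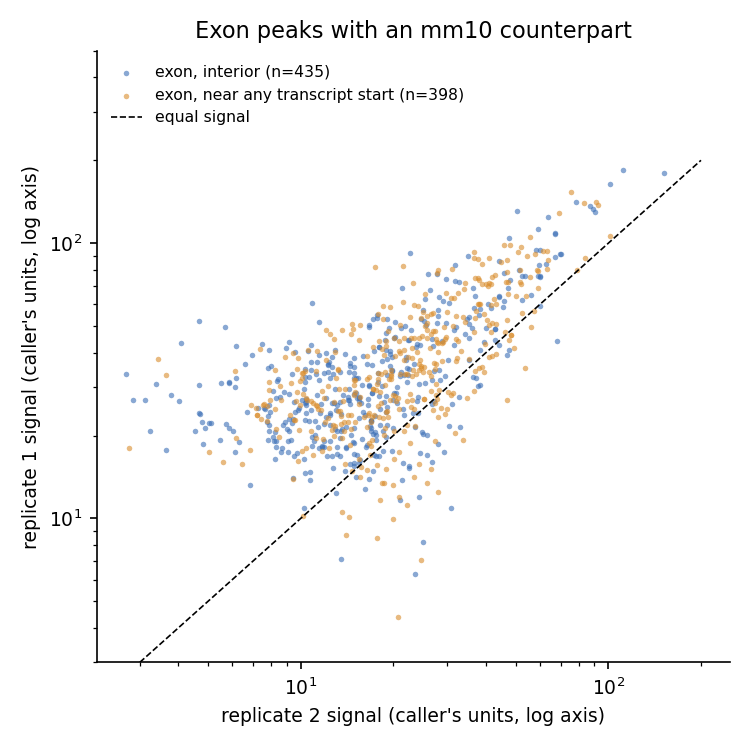
Signal in replicate 1 (y axis) against replicate 2 (x axis), in the caller's units on log axes, at mm10 counterparts of exon peaks. Each point is an exon peak found in both replicates, 10 of which share their values with a neighbour, and the dashed line marks equal signal. Replicate 1 is higher at 87.6% of the 833 points.

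The strongest exon peak was in the last exon of a transcript of Phf15, which encodes a PHD finger protein of the JADE family, at chr11:51658153-51658624. It had a signal of 595 and held CACCTG. On mm10 its counterpart had 180 in replicate 1 and 151 in replicate 2. Phf15 had 3 more exon peaks, with signals of 162, 33.9 and 30.5, of which none held a main E-box. The peaks with 33.9 and 30.5 overlapped.

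Rpgrip1, which encodes a protein of the photoreceptor cilium, followed with a signal of 594 at chr14:52769591-52769933, over an internal coding exon of 204 bp. Its replicates had signals of 184 and 111. The peak in the single coding exon of 4933403G14Rik, at chr8:128195185-128195632, had 519, with 164 and 101 in the replicates. All 3 of these peaks were interior and higher in replicate 1.

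Coding exons held 3 further peaks among the 15 strongest. Cmya5, a gene of a large muscle protein, had a signal of 326 in an internal exon of 9310 bp at chr13:93864093-93864416, without a main E-box (replicates 133 and 89.3). The nonagouti gene (symbol a), which encodes a paracrine antagonist in pigment cells, had 325 in its last exon at chr2:154876340-154876646, with CACCTG (replicates 129 and 90.3). Stam2, an endosomal sorting adaptor gene, had 307 at chr2:52550207-52550458, with the CAGCTG shown above and no mm10 counterpart within 50 bp.

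The 3' UTR peaks among the 15 strongest were both interior. Rnf165, a ubiquitin ligase gene, had a signal of 312 at chr18:77697636-77697970, with 2 CAGCTG sites (replicates 141 and 78.6). Rgs8, a regulator of G protein signalling, had 287 at chr1:155543237-155543571, with CAGCTG and CACCTG (replicates 137 and 87.4).

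The other strong peaks lay near starts inside genes. Por, the cytochrome P450 reductase gene, had a signal of 362 at chr5:136164887-136165228, 1 bp from the nearest transcript start and 19126 bp from the nearest gene 5' end (replicates 154 and 75.6). Ctnnb1, which encodes beta-catenin, had 333 at chr9:120842403-120842715, 25 bp from the nearest transcript start (replicates 138 and 92.5). Both were in 5' UTRs of first exons and held no main E-box. Laptm5, a lysosomal membrane protein gene of blood cells, had 312 at chr4:130471575-130471942, 105 bp from the nearest transcript start, with CACCTG (replicates 140 and 83.2). Por, Ctnnb1 and Laptm5 each had a coding transcript's start within 1 kb of the summit, which need not be the nearest one. Grb10 (354), Il16 (327), Ehd1 (321) and Rassf2 (295) had theirs within 118 bp of the start of a transcript not annotated as protein-coding, and all except Grb10 held a main E-box. No mm10 counterpart was found for the Rassf2 peak.

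The other genes with 4 exon peaks were Il16, Cx3cl1, Tmc8 and Akap13. Il16, the gene of a T cell chemoattractant, had signals of 327, 231, 98.3 and 34.1, and the second, over an internal coding exon at chr7:90809516-90809831, held CACCTG. Cx3cl1, the chemokine fractalkine, had all 4 in its last exon, 2 in coding sequence and 2 in the 3' UTR, with signals of 94.4, 75.4, 44.0 and 33.7. Tmc8 had 4 coding peaks with signals from 30.4 to 59.7, and 2 of these overlapped. Akap13, which encodes an anchor of protein kinase A, had 4 in coding sequence with signals from 32.8 to 55.9.

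In the list of B cell identity and receptor signalling, 7 of 31 genes had an exon peak (22.6%, 11.4 to 39.8), while 4.45% of all protein-coding genes did. The same genes had promoter peaks in 74.2% of cases and intron peaks in 64.5%, against 35.2% and 14.6% of all genes, so exon peaks were not the only kind they carried more often. The lists were chosen with earlier results of these data known, and gene length, which sets how much exon a gene offers, was not matched.

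The strongest of this list was at Ptpn6, the phosphatase SHP-1 that dampens B cell receptor signals, with a signal of 177 at chr6:124671014-124671215 in a 3' UTR (replicates 98.3 and 47.9). It held CACCTG and lay 757 bp from the nearest transcript start, with a coding transcript's start within 1 kb. Swap70, a signalling protein of activated B cells, had 110 in its last exon, 57244 bp from the nearest transcript start (replicates 68.5 and 36.2). Blnk, the adaptor downstream of the B cell receptor, had 50.6 in a last exon at chr19:41039747-41040116, with 29.1 in replicate 1 and 8.11 in replicate 2. Ikzf1, which encodes Ikaros, had 40.1 at 34 bp from the nearest transcript start (replicates 23.1 and 18.6). Spib, Ikzf3 and Vpreb3 had weaker ones, from 33.9 to 36.6.

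In the list for activation and the germinal centre, 6 of 33 genes had an exon peak (18.2%, 8.61 to 34.4), while 4.45% of all protein-coding genes did. Promoter peaks were at 69.7% of the 33 genes and intron peaks at 54.5%, against 35.2% and 14.6% of all genes. Irf4, a factor of activation and plasma cell differentiation, had 73.7 over an internal coding exon of 113 bp at chr13:30853091-30853460, with CACCTG (replicates 45.4 and 20.2). Ezh2, the histone H3 lysine methyltransferase gene, had 106 in the last exon of a transcript not annotated as protein-coding (replicates 43.9 and 39.5). Irf8, a B cell and myeloid factor, had 93.3 with CAGCTG at 707 bp from the nearest transcript start (replicates 54.5 and 25.8). Traf1, a signalling adaptor of the TNF receptor family, had 91.4 in a 5' UTR at 36 bp from a start (replicates 38.4 and 32.3).

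Plasma cell genes had an exon peak in 2 of 15 cases (13.3%, 3.74 to 37.9), both at starts inside the gene, and this interval includes the 4.45% of all genes. Prdm1, which encodes the plasma cell repressor Blimp-1, had 150 at chr10:44178376-44178598, 24 bp from the nearest transcript start and 69790 bp from the nearest gene 5' end (replicates 84.2 and 38.9). Xbp1, a factor of the secretory programme, had 164 at chr11:5421766-5421974, with CAGCTG, 61 bp from the nearest transcript start (replicates 87.2 and 46.8).

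E proteins, ID proteins and their partners had an exon peak at 4 of 23 genes (17.4%, 6.98 to 37.1), beside 4.45% of all protein-coding genes. Promoter peaks were at 52.2% of the 23 genes and intron peaks at 47.8%, against 35.2% and 14.6% of all genes. Bhlhe41, a basic helix-loop-helix repressor, had 3 interior peaks in its last exon, with signals of 154, 47.0 and 32.9. The strongest was in the 3' UTR at chr6:145807059-145807235 and held CACCTG (replicates 75.9 and 59.1). Zeb2, a zinc finger repressor that binds E-box-like sites, had 143 in a last exon at chr2:44878235-44878418, with 2 CACCTG sites and 87554 bp from the nearest transcript start. No mm10 counterpart was found for this Zeb2 peak. Runx1, a lymphoid factor, had 61.7 in its 3' UTR (replicates 35.7 and 19.5). Lmo2, a bridging partner of E proteins, had 58.5 at 3 bp from the nearest transcript start (replicates 40.3 and 13.0).

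Toll-like receptor and cytokine signalling genes had an exon peak at 6 of 32 (18.8%, 8.89 to 35.3), and 1 of the 6 had an interior one. Over all protein-coding genes the share with an exon peak was 4.45%. Promoter peaks were at 65.6% of the 32 genes and intron peaks at 28.1%, against 35.2% and 14.6% of all genes. Irak2, a kinase of the Toll-like receptor pathway, had 172 in a 5' UTR (replicates 80.4 and 63.0). Myd88, the adaptor of these receptors, had 56.6 at 5 bp from the nearest transcript start (replicates 32.5 and 16.7). Stat3 had 3 exon peaks, with signals of 74.5, 68.6 and 38.7, all with a main E-box and all within 1 kb of the start of a transcript not annotated as protein-coding. No mm10 counterpart was found for the strongest of these. Stat5a had 52.0 with CAGCTG (replicates 27.3 and 20.7).

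In 3 other lists the interval of the share included the 4.45% of all protein-coding genes. Chromatin modifiers had an exon peak at 3 of 43 genes (6.98%, 2.40 to 18.6), Arid1a (67.1), Kdm2a (39.0) and Kdm2b (35.8), all within 1 kb of a coding transcript's start, and the Kdm2b peak was the higher in replicate 2 (7.05 and 24.6). Potassium channel genes had 2 of 30 (6.67%, 1.85 to 21.3), Kcnab2 (86.0) and Kcnk2 (39.3), and no mm10 counterpart was found for the Kcnk2 peak. T cell genes had 2 of 23 (8.70%, 2.42 to 26.8), Cd3d, a chain of the T cell receptor complex (46.5, replicates 13.8 and 21.4), and Lck, its kinase (45.6, replicates 39.8 and 9.42).

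ChIP-seq gives no expression, so markers check no label here. The B cell markers Cd79a, Cd79b, Pax5, Ebf1 and Ms4a1 all had peaks in the gene body or promoter, from 1 to 22, and none in exons. Of the T cell markers, Cd3e, Cd3g and Tcf7 had 1 or 2 peaks and Bcl11b had 0.

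At the edge of the rule, the 30 exon summits in the last 100 bp before 1 kb from a gene's 5' end, just outside it, had a median signal of 50.02 and a main E-box in 20% of cases. The 18 in the first 100 bp beyond 1 kb, just inside it, had 60.5 and 22.2%.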

How the data were processed

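TCF12 ChIP-seq peaks of 2 biological replicates of CH12.LX were used as the authors deposited them. Per the deposited descriptions of the files, the mm9 list was derived from both replicates' alignments, and the mm10 lists from each replicate with a control alignment, followed by a filter on the irreproducible discovery rate (IDR) between replicates. Which aligner and peak caller were used is not given in the sources used here. The signal of each peak is the authors' caller's own deposited value, with no stated scaling or depth, so it serves here to order peaks of the same list.

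The summit was the peak start plus the deposited offset. In 900 of the 1138 exon peaks (79.1%) the peak is 370 bp wide and the summit is its middle, and 48 exon peaks (4.22%) overlap another peak. Exons, coding sequence and transcript starts came from GENCODE vM1 and sequence from NCBIM37 (mm9). A summit in several transcripts was assigned to coding sequence first, then 3' UTR, 5' UTR and other exons. A motif counted, on either strand, when all its bases were at most 50 bp from the summit. Coordinates count from 1.

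Replicate values came from mm10 peaks matched by distance from the ends of the gene of the same symbol in RefSeq GRCm38.p6, found for 980 of 994 host genes, with no coordinate conversion. Shares have 95% Wilson intervals. There are Newcombe intervals for differences, Katz intervals for ratios of shares, order-statistic intervals for medians and exact Poisson intervals for densities. All cover counting error only. No p-value was computed, since 1 group with 2 replicates offers no contrast.

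The genes named are hosts of the 15 strongest exon peaks, the 5 with most exon peaks, and up to 4 with the strongest exon peaks in each of 9 lists holding 265 genes, with other list members given where a count is small. Some items are not reported here. The sequences printed were chosen from the strongest with an E-box in coding sequence or on an exon border, after seeing them. The members and lists were chosen with earlier results of these data known. Scripts used Python 3.11.15, numpy 2.4.6, pandas 2.3.3, scipy 1.17.1 and matplotlib 3.10.9. The E-box scan was tested on simulated sequence, and the border scan on a made-up example and on annotated donors. The frame scan was tested on annotated start codons. Alternatives were other distances, exon definitions, windows, flanks and lists, and, chosen after seeing the data, distance from every transcript start.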

Additional observations from a re-analysis of the deposited data

How the results depend on the processing

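Measuring from every transcript start, an alternative chosen after seeing the data, turned the direction of the E-box difference from introns. More than 1 kb from every transcript start, the exon share was 2.57%, its E-box share 46.4%, its flank ratio 2.88, its coding share 49.5% and the signal ratio of exon to intron peaks 0.920, and the E-box difference from introns turned to 4.21 points. With protein-coding transcripts only, these were 3.05%, 45.6%, 2.92, 48.0%, 0.932 and 3.39 points. Against 4.83%, the exon share was 5.63% with 5' ends avoided by 500 bp, 4.18% both with 2 kb and with exons of protein-coding transcripts only, 4.35% in the peaks above the median signal and 4.08% when at least 50% of the peak width had to be exon. The coding share of exon peaks, 36.5%, was 42.1%, 32.0% and 31.5% under the last 3 of these. The E-box share, 35.7%, was 32.8% with 500 bp, and 21.3% and 48.9% with windows of 25 and 100 bp, whose flank ratios were 2.83 and 1.83. The flank ratio was 2.09 with flanks wholly inside exons. The E-box difference from introns was -10.2 points in the peaks above the median signal. The share with an mm10 counterpart, 74.9%, was 57.7% within 20 bp and 83.1% within 200 bp, and 65.5 to 71.4% in 1 replicate alone. The other 32 values stayed within the interval of the reported one. The causes were not tested. No paired analysis was possible because there is 1 group only.

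Read depth, unknown here, limits which weak peaks were found. The signal has no stated scaling, so differences between replicates at single peaks cannot be told apart from depth. With 2 replicates no spread between cultures can be estimated, and intervals are too narrow where peaks are not independent. An annotated start or exon border need not be used in these cells, since no RNA was measured here.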

Other observations

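Exon peaks were unevenly spread over the chromosomes. Chromosome 11 held 179 of the 1138, or 29.5 per Mb of exon, while the other chromosomes ranged from 6.43 (chromosome X) to 20.9 (chromosome 16). Chromosome 11 also held the most peaks of any kind, 2648, and 6.76% of these were in exons, against 4.58% without it. The exon share was higher on chromosome X, at 7.19% of 278 peaks, and was 6.33% on chromosome 19. The exon peaks of chromosome 11 had a main E-box in 43.0% of cases (36.0 to 50.3) and a median signal of 51.7. Without chromosome 11 the E-box share of exon peaks was 34.3%. The copy number of the chromosomes in this line was not analysed here.

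Of the 606 interior exon peaks, 25 (4.13%) lay within 1 kb of the 5' end of an annotated gene of another biotype.

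By distance from the nearest gene 5' end, the share of exon peaks with a main E-box was 27.6% at 1 to 2 kb, 26.7% at 2 to 5 kb, 38.8% at 5 to 10 kb, 41.6% at 10 to 50 kb and 34.5% beyond 50 kb. The share of interior peaks among them was 35.5%, 41.5%, 57.2%, 57.4% and 67.9% in the same order. Intron peaks had a main E-box in 27.9%, 36.4%, 41.5%, 41.7% and 43.3% of cases.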
